A study of Mus musculus with 15 samples.

Results

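Tcstv1 and Tcstv3 are 2 of the 53023 genes in an FPKM table of mouse 2-cell embryos, picked by gene name. FPKM is the number of fragments per kilobase of gene length, scaled to the assigned fragments of each library. Both genes passed the filter of a mean of at least 1 FPKM, as did 13443 genes in all. The study asked what the loss of nuclear actin filaments does to the transcriptome. Each library was made from 5 pooled ICR embryos, obtained by in vitro fertilization and collected 32 hours after insemination. mRNA was injected 2 hours after insemination. The mRNAs encoded R62D, an actin mutant unable to form filaments, or wild-type actin as a control, both HA-tagged and directed to the nucleus (actinR62D-HA-NLS and actinWT-HA-NLS), and other embryos were not injected.

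The 6 libraries form 3 pairs, and the labels contradict each other on what the pairs are. For pair A the titles read Wt, whereas the annotation of injected mRNA reads non-injected. For pair B the titles read R62D and the annotation actinWT-HA-NLS. For pair C the titles name a non-injected control and the annotation actinR62D-HA-NLS. Going by the annotation, C against B is therefore R62D against wild-type actin. Going by the titles it is non-injected against R62D. In the same order of readings, C against A is R62D against non-injected, or non-injected against wild-type actin. B against A is wild-type actin against non-injected, or R62D against wild-type actin. No reading was chosen from the values. Actb, which encodes cytoplasmic beta-actin, measured 51.95 FPKM in A1 and 69.2 in A2, 116 in B1 and 74.1 in B2, 34.6 in C1 and 27.1 in C2, and injected and embryonic actin mRNA cannot be told apart in this table.

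The Tcstv genes (2-cell-stage, variable group) were named for transcripts of the mouse 2-cell embryo, the stage at which the embryonic genome is switched on. They lie in an array of related genes on chromosome 13. In mouse embryonic stem cells they mark, with the Zscan4 genes and the MERVL retrovirus, the rare cells that resemble the 2-cell embryo, and their overexpression there has been linked to longer telomeres. How the proteins act in the embryo is less clear.

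Tcstv1 (ENSMUSG00000096284.2) spans chromosome 13, 119893388 to 119894785, on the minus strand of mm10. Tcstv3 (ENSMUSG00000095821.2) spans 120316878 to 120318178 of the same chromosome on the plus strand, 422093 bases further on. GENCODE M21 gives each gene a spliced transcript with 2 exons, and the coding sequence lies within the second exon. The coding sequences, with the stop codon, have 516 and 510 bases and are 93.6% identical. Both open with the same 119 bases, the longest run that their coding sequences share. The run is shown because a read of 50 bases from it, without the other read of its pair, cannot be assigned to 1 gene. It lies at chr13:119893976-119894094 on the minus strand in Tcstv1 and at chr13:120317567-120317685 on the plus strand in Tcstv3, and transcripts of 3 genes hold it, the remaining one being the neighbour Gm21818.
Tcstv1, Tcstv3 and Gm21818: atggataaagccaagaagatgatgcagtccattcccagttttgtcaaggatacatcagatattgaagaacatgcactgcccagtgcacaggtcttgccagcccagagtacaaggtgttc

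The 90 aligned coding bases without a gap that differ most between the genes are shown next. Reads from them can be told apart between Tcstv1 and Tcstv3. The related genes of the array were not compared over this stretch. It covers coding bases 368 to 457 in both genes, at chr13:119893638-119893727 on the minus strand and chr13:120317934-120318023 on the plus strand. Capitals mark the 12 bases at which the genes differ.
Tcstv1: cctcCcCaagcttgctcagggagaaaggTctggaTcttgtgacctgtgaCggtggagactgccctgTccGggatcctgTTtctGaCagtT
Tcstv3: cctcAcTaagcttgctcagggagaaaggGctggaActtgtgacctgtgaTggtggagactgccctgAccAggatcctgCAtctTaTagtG

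Over the whole annotated transcripts, 209 of the 1397 distinct 50-base words of Tcstv1 (14.96%) occur in a transcript of another gene. For Tcstv3 they are 229 of 730 (31.4%). The words of Tcstv1 include those of a second annotated transcript of 1280 bases, which runs across the intron. The longest transcript of Tcstv3 has 779 bases and is spliced. The percentages of the 2 genes are therefore not comparable, and the numbers of shared words lie close together. Gm21818 shares the most words with each gene, 165 with Tcstv1 and 139 with Tcstv3. Tcstv1 and Tcstv3 share 131 words with each other. Words take no account of the other read of a pair. The reads recovered from the table for both genes were fractional (257.5 reads for Tcstv1 in C1, for example), and how reads that fit several genes were counted is not stated. The level of either gene may therefore hold reads of a copy, and the values of both are uncertain to that extent.

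**Figure D1:**
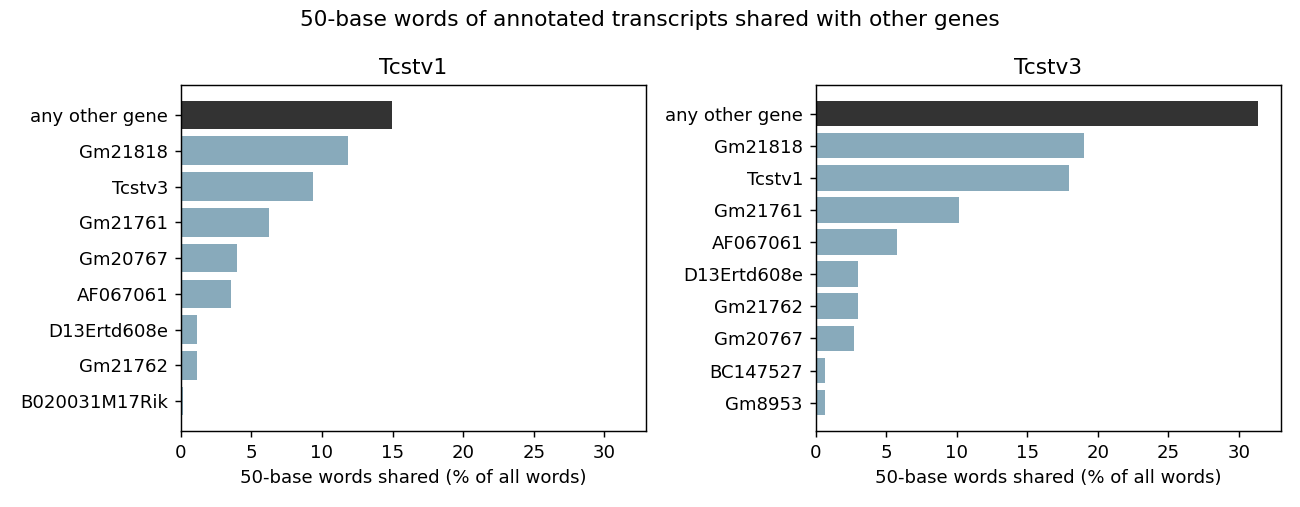
Percent of the distinct 50-base words of Tcstv1 (left) and Tcstv3 (right) that occur in annotated transcripts of other genes; the dark bar counts words found in any other gene, and the other bars give single genes and can overlap. Tcstv3 shares 31.4% of its words and Tcstv1 14.96%, in each case most with Gm21818.

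Assigned reads numbered 907210 to 1555431 per library. Libraries A2 and C2 stood apart, with 12485 and 12279 genes at 1 FPKM or more against 13239 to 13845 in the other 4, and with the lowest median over 15 oocyte markers (-0.55 and -0.39 on the log2 scale after subtracting the 6-library mean, against 0.04 to 0.61). The summed level of the 16 oocyte markers listed, which include 1 below the filter, was 9206 to 9660 FPKM in A, 6837 to 10189 in B and 8809 to 9563 in C. A single abundant gene made up most of this sum in every library, so the sum does not follow the median. All 7 markers of the 2-cell stage were above 0 FPKM in every library, with a summed level of 749 to 991 FPKM in A, 1711 to 2218 in B and 788 to 1390 in C. Of 16 cumulus and granulosa markers, Foxl2, Fshr, Lhcgr and Inha were listed at 0 in all 6 libraries, and the summed level was 12.01 to 20.3 FPKM in A, 42.1 to 54.2 in B and 24.1 to 42.4 in C, most of it on Bex2 and Nr5a2. Of 12 sperm and spermatid markers, Prm1, Tnp2 and Acr were listed at 0 throughout, whereas Prm2 reached 1.00 FPKM in A2 and Tnp1 1.81 FPKM in B1. The summed level was 36.5 to 42.4 FPKM in A, 32.3 to 53.2 in B and 34.2 to 42.3 in C. Most of it was on Ldhc, at 28.6 to 46.04 FPKM over the 6 libraries. Of the blood markers, Hbb-bs and Hbb-bt were at 0, while the sum, nearly all alpha-globin, was 14.2 to 81.6 FPKM in A, 40.4 to 76.9 in B and 9.11 to 30.3 in C. The part of these markers and of libraries A2 and C2 in the values below was not tested.

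The means of Tcstv1 in the 3 pairs differed by less than the libraries of pair A did. The gene measured 153 FPKM in A1 and 85.2 in A2, 120.4 in B1 and 136 in B2, 118 in C1 and 129.7 in C2. Both extremes fell within pair A, and all pairs overlapped. Pair A averaged 119 ± 48.1 FPKM, pair B 128 ± 11.3 FPKM and pair C 124 ± 7.96 FPKM (SD, n = 2), an order in which no neighbours differ beyond their spread. These values rest on 133 to 257.5 reads per library, which gives a counting error of 6.23% to 8.67%. The gap between A1 and A2, 1.80-fold, was larger than that error.

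Tcstv3 was among the more abundant mRNAs of the embryo. It ranked between 100th and 200th by FPKM in each library, where 17611 to 21013 of the 53023 genes were above 0. It measured 616 FPKM in A1 and 403 in A2, 759.9 in B1 and 582 in B2, 405 in C1 and 499 in C2. Both B libraries were above both C libraries, while A overlapped with B and with C. Pair A averaged 509 ± 151 FPKM, pair B 671 ± 126 FPKM and pair C 452 ± 66.7 FPKM (SD, n = 2), from 351 to 749 reads per library and with a counting error of 3.66% to 5.34%. In descending order the pairs were B, A and C, and neighbours in that order overlapped.

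The sum of both genes measured 769 FPKM in A1 and 488 in A2, 880.2 in B1 and 719 in B2, 524 in C1 and 629 in C2. Tcstv3 made up most of the sum in every library, for example 759.9 of 880.2 FPKM in B1 and 405 of 524 in C1. The sum therefore mainly repeats Tcstv3. B again lay above C without overlap, A spanned the range of C, and the lowest value was in A2. Pair A averaged 629 ± 199 FPKM, pair B 799 ± 114 FPKM and pair C 576 ± 74.6 FPKM (SD, n = 2). In bulk pools a lower share of embryos or cells with the transcripts and less of it per cell cannot be told apart.

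**Figure D2:**
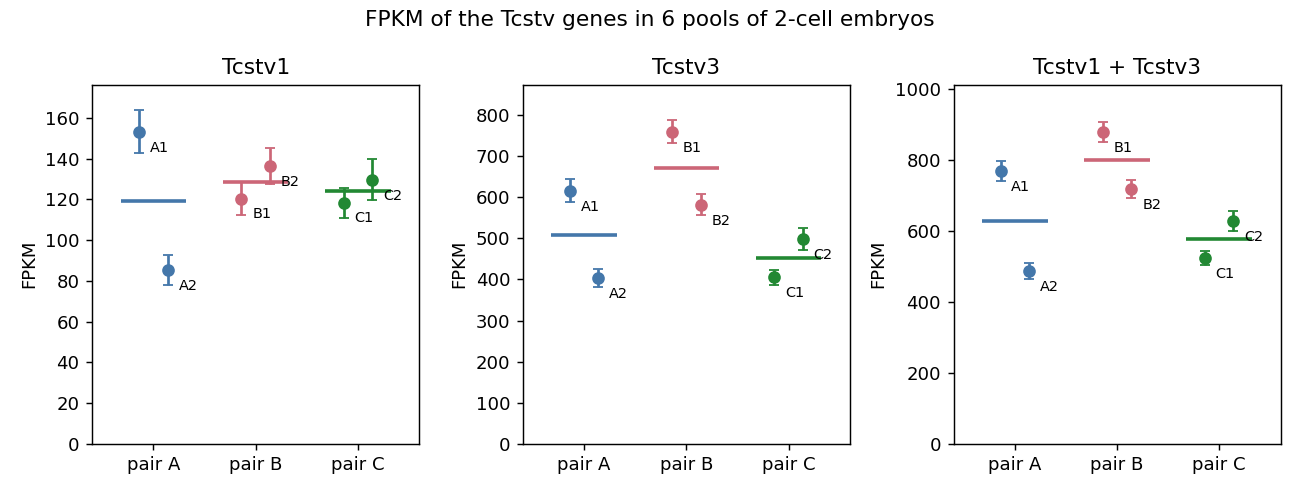
FPKM of Tcstv1, Tcstv3 and their sum in each library (points, labelled by pair and replicate), with counting error of the recovered reads (bars) and the mean of each pair (lines). Tcstv1 has its extremes in A1 (153 FPKM) and A2 (85.2 FPKM), and Tcstv3 is higher in both B libraries than in both C libraries.

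Compared per length, Tcstv3 was the more abundant of the genes in every library. The ratio of Tcstv3 to Tcstv1 in FPKM was 4.02 in A1 and 4.73 in A2, 6.31 in B1 and 4.27 in B2, 3.42 in C1 and 3.85 in C2. It was highest in B1 and lowest in C, whose libraries both lay below the other 4, and this difference was not tested. The gap between C2 and A1 is smaller than the counting error of Tcstv1 alone, 7.80% in C2 and 6.83% in A1. The size of the ratio depends on the annotated lengths. The table divides Tcstv1 by 1398 bases, which includes the intron of its spliced transcript, because a second annotated transcript of 1280 bases in 1 exon runs across it. It divides Tcstv3 by 779 bases, the spliced length. With 875 spliced bases for Tcstv1 its level was 136 to 245 FPKM, against 403 to 759.9 for Tcstv3, and the ratio was 2.14 to 3.95.

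In C against B, Tcstv3 had a log2 fold change of -0.56 ± 0.31 (SE) on the log2(FPKM + 1) scale and Tcstv1 one of -0.05 ± 0.34. Neither passed (limma over all genes, adjusted p = 1 for each), and 0% of all genes tested passed. The smallest adjusted p of any gene was 0.167. In unadjusted terms p was 0.115 for Tcstv3 and 0.892 for Tcstv1 (limma), where 3.85% of genes had a p below 0.05. The 95% interval allows Tcstv3 in C between 0.405-fold and 1.13-fold of B, and Tcstv1 between 0.554-fold and 1.69-fold. Pairs that do not overlap with C below B, as for Tcstv3, were seen for 14.8% of all genes, and 30.2% did not overlap in either direction.

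In C against A, the log2 fold change was -0.15 ± 0.31 (SE) for Tcstv3 and 0.12 ± 0.34 for Tcstv1, with overlapping pairs (limma, adjusted p = 1 for each, 0% of all genes passed). Pairs did not overlap for 26.9% of all genes in this comparison, 10.4% with C lower, and 3.01% had an unadjusted p below 0.05. The 95% intervals run from 0.541-fold to 1.51-fold and from 0.621-fold to 1.89-fold. Library A2 decided the sign for Tcstv1, which was -0.30 without it, and A1 and C1 that for Tcstv3, which was 0.16 without A1 and 0.0035 without C1.

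In B against A, the log2 fold change was 0.42 ± 0.31 (SE) for Tcstv3 and 0.16 ± 0.34 for Tcstv1 (limma, adjusted p = 0.991 and 0.993, 0% of all genes passed). The pairs overlapped for both genes, as they did not for 31.7% of all genes, and neither gene was among the 4.57% with an unadjusted p below 0.05. The intervals run from 0.799-fold to 2.23-fold for Tcstv3 and from 0.642-fold to 1.96-fold for Tcstv1. Without A2 the coefficient of Tcstv1 was -0.26 (limma). That library held the lowest value of both genes. These comparisons share their libraries, so the coefficients of a gene are not independent of each other.

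**Figure D3:**
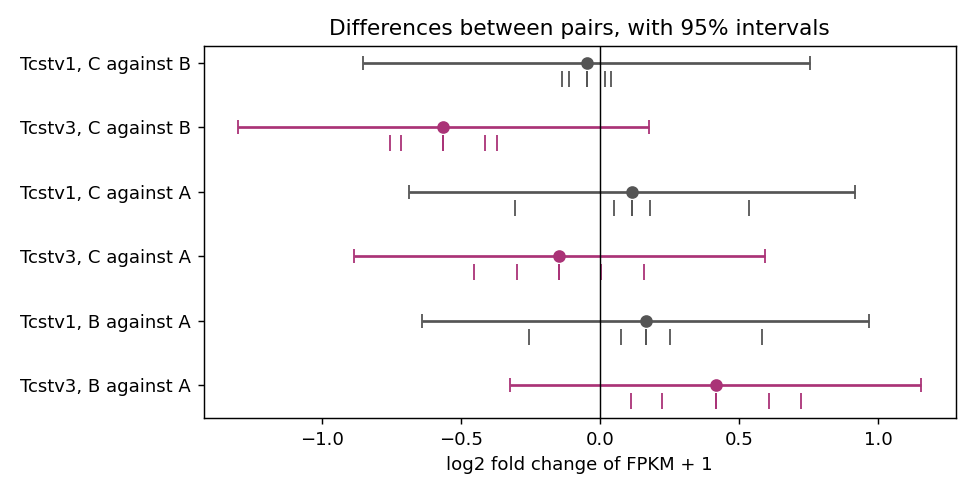
Log2 fold change of FPKM + 1 (points) with the 95% interval of the limma fit (bars) for Tcstv1 (grey) and Tcstv3 (purple) in the 3 comparisons; the ticks under each bar give the value with 1 library left out. Every interval includes 0, and the point farthest from 0 is Tcstv3 in C against B, at -0.56.

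Relatives of Tcstv1 and Tcstv3 fill the region between and around them. Of 41 other genes listed within 500 kb of either gene, 26 passed the filter, and 10 of the 20 whose coding sequence was compared are at least 70% identical to Tcstv1 or Tcstv3 in it. These 10 are also the most abundant neighbours. The 12 genes together took 0.489% of assigned reads in A1 and 0.358% in A2, 0.551% in B1 and 0.396% in B2, 0.398% in C1 and 0.385% in C2. The share was highest in B1 and lowest in A2, and all pairs overlapped.

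The relatives fell into 6 closer copies, with a best identity of 88.5% to 96.3%, and 4 more distant ones, with 70.9% to 78.3%. The line between them was drawn at 80% after the values were seen. The closer copies are Gm21818, Gm21761, AF067061, Gm20767, BC147527 and B020031M17Rik, with means over the 6 libraries of 95.4 to 416 FPKM. The distant copies AF067063, D13Ertd608e, Gm21762 and Gm21731 were more abundant per length, with means of 596 to 817 FPKM. Functions of these genes are not given by their annotation.

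Gm21818, the copy most like Tcstv1, measured 495 FPKM in A1 and 280.3 in A2, 557 in B1 and 456 in B2, 380.1 in C1 and 329.9 in C2. As with Tcstv3, both B libraries were above both C libraries and A2 was lowest. Of the closer copies, 5 of 6 were lowest in A2, and 5 of 6 were highest in B1. All 4 distant copies were also highest in B1 but lowest in B2. D13Ertd608e, for example, measured 976 FPKM in B1 and 682 FPKM in B2. How many of all genes had their extremes in these libraries was not counted. Library A2 had the lowest median over all genes tested, -0.14 in log2 units from the mean of the 6 medians.

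None of the 10 copies passed in any comparison (limma, 0 higher and 0 lower), and 0 had an unadjusted p below 0.05. In C against B the closer copies had log2 fold changes of -0.79 to -0.33, with a median of -0.51, and 4 of 6 were lower without overlap between the pairs, as were 14.8% of all genes. The distant copies had values of -0.10 to -0.02, with 0 of 4 apart, and the median of all genes tested was 0. Gm20767 had the lowest value, -0.79 ± 0.35 (SE), with 80.5 and 117 FPKM in C2 and C1 against 145.5 and 194 FPKM in B2 and B1. In B against A the closer copies had values of 0.35 to 0.67 and the distant copies -0.14 to -0.06, beside a median of 0.07 for all genes. In C against A they had values of -0.12 to 0.30 and -0.17 to -0.12. Where reads fit several of these genes, their values may not be independent of each other.

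**Figure D4:**
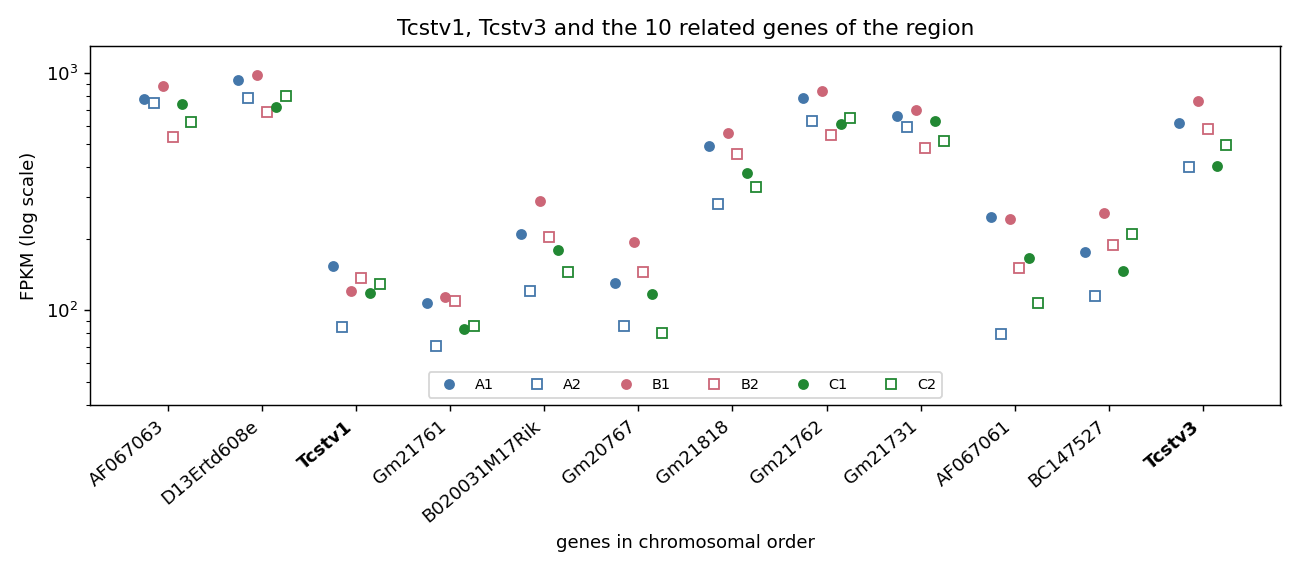
FPKM (log axis) of Tcstv1, Tcstv3 and the 10 related genes in each of the 6 libraries, with genes in chromosomal order but not to scale; circles are replicate 1 and open squares replicate 2 of pairs A (blue), B (red) and C (green). The distant copies AF067063, D13Ertd608e, Gm21762 and Gm21731 lie highest together with Tcstv3 and Gm21818, and Tcstv1 lies near 124 FPKM.

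The Tcstv levels were set beside other genes of the 2-cell programme. A list of 57 such genes had 53 that passed the filter, among them 5 of the Tcstv copies. None of its genes passed in any comparison (limma, 0 higher and 0 lower). In C against B, 46 of 53 coefficients were below 0, with a median of -0.55, while 49.9% of all genes were above 0. Of the list, 18 genes were lower without overlap (14.8% of all genes were) and 6 had an unadjusted p below 0.05 (3.85% of all genes). In B against A, 49 were above 0 (55.1% of all genes were), with a median of 0.63. There 30 genes were higher without overlap (18.8% of all genes were) and 12 had an unadjusted p below 0.05 (4.57% of all genes). In C against A the median was 0.14, with 0 genes below that p (3.01% of all genes). Many genes of the list belong to families, such as the Zscan4, Tdpoz and Usp17l genes, and may share reads or move together. Gm6763 and Gm4340, for example, had log2 fold changes of -1.864 and -1.855 in C against B. The counts therefore do not rest on 53 independent genes.

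By library the median of this list, in log2 units after subtracting the 6-library mean, was 0.002 in A1 and -0.64 in A2, 0.35 in B1 and 0.73 in B2, 0.31 in C1 and -0.45 in C2. The summed Tcstv level on the same scale was 0.23 in A1 and -0.42 in A2, 0.43 in B1 and 0.14 in B2, -0.32 in C1 and -0.06 in C2. Both profiles were lowest in A2. The list was highest in B2, where the Tcstv sum lay below B1 and A1, and C1 was above the mean for the list and below it for the Tcstv sum. Gm2016, an abundant gene of the list, measured 472 FPKM in A1 and 293 in A2, 937 in B1 and 1104 in B2, 738 in C1 and 287 in C2. Gm5662 measured 701 FPKM in A1 and 309.7 in A2, 1081 in B1 and 1404 in B2, 824 in C1 and 320.2 in C2. Both genes were highest in B2 and low in A2 and C2. Obox6, a homeobox gene, stayed between 1006 and 1377 FPKM in all 6 libraries.

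Of 15 genes listed as regulators of the 2-cell programme, 14 passed the filter. The list was not split into activators and repressors, and some of its genes belong to the programme themselves. None of the 14 genes passed a comparison (limma, 0 higher and 0 lower). In C against B, C against A and B against A, 1, 1 and 3 had an unadjusted p below 0.05 (limma). The shares of all genes were 3.85%, 3.01% and 4.57%. Zscan4d in C against B, and Zscan4c and Zscan4d in B against A, were also counted in the 2-cell-stage list. That list holds Nelfa and Duxf3 too. In C against A and B against A, Zfp42 was among the genes counted here (unadjusted p = 0.00402 and 0.00194, limma). Zfp42 measured 6.38 to 7.13 FPKM in A, 19.3 to 22.9 in B and 16.9 to 19.9 in C, from 12 to 51.5 reads. Duxf3, the gene of the transcription factor Dux that switches on 2-cell genes, did not pass the filter, at 0.03 to 0.62 FPKM and at most 2 reads. Dppa4 and Dppa2, activators of Dux in mouse embryonic stem cells, measured 290.5 to 376 FPKM and 99.6 to 202 FPKM. Zscan4c had 30.4 FPKM in A1 and 17.5 in A2, 37.5 in B1 and 192 in B2, 84.2 in C1 and 41.8 in C2. Its highest value was in B2, where neither Tcstv gene was at its highest or lowest. Zscan4d, its close copy, measured 73.9 to 88.01 FPKM in A, 153 to 214 FPKM in B and 72.6 to 133 FPKM in C.

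The genes whose profile lay closest to the summed Tcstv level were named by the root mean square difference of centred log2(FPKM + 1) values over the 6 libraries, searched over 7084 genes that averaged 5 FPKM or more. For comparison, this difference was 0.05 between Tcstv3 and the sum, 0.23 between Tcstv1 and the sum, and 0.28 between Tcstv1 and Tcstv3. Tcstv3 makes up most of the sum, so its closeness to the sum follows from how the sum is built. The closest were Chaf1b, a subunit of the histone chaperone CAF-1 (0.07), Gm21761, a Tcstv copy (0.10), Eef1akmt1, a lysine methyltransferase of a translation elongation factor (0.10), and Bmi1, a Polycomb protein (0.10). Arap2, a regulator of small GTPases (0.10), Fth1, the ferritin heavy chain (0.10), Foxn2, a forkhead transcription factor (0.11), and Spidr, a scaffold protein of DNA repair (0.11), followed. The 8 genes were picked as the closest of 7084 over only 6 libraries, so small differences follow from the search. A link of any of them to the Tcstv genes was not tested. Gm21761 shares 87 of its 50-base words with Tcstv1 and 74 with Tcstv3. Chaf1b, which is also 1 of the 15 regulators, rested on 19 to 49 reads per library, and measured 3.40 FPKM in A2 and 7.75 FPKM in B1. Bmi1 measured 207 FPKM in A2 and 321 FPKM in B1, with 212 and 255 FPKM in C1 and C2. None of the 8 passed in any comparison (limma). Gm21818 ranked 18th and the distant copy AF067063 1296th of the 7084 genes.

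**Figure D5:**
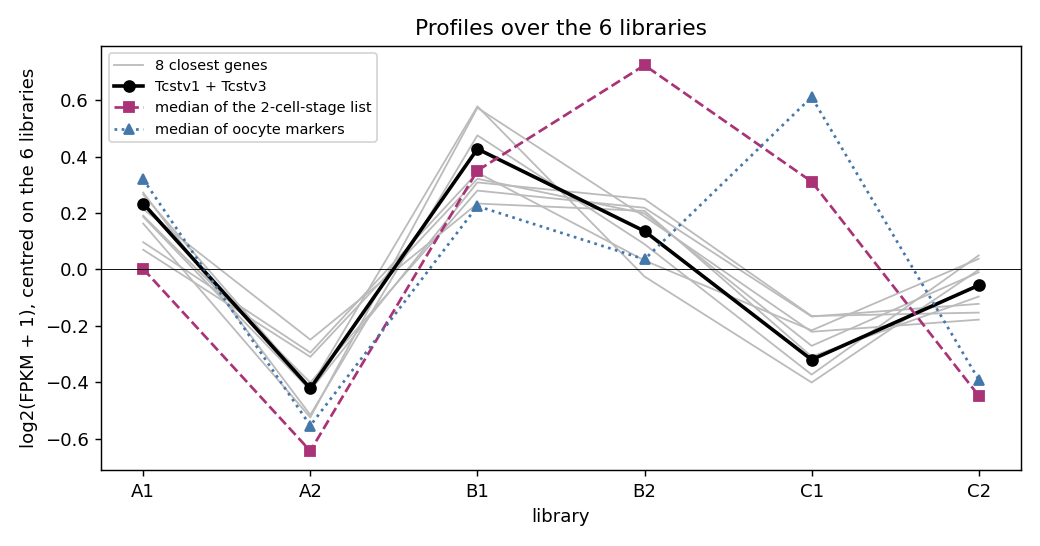
Log2(FPKM + 1) centred on the mean of the 6 libraries for the sum of Tcstv1 and Tcstv3 (black), the 8 closest genes (grey), and the medians of the 2-cell-stage list (purple) and of the oocyte markers (blue); lines join libraries only to guide the eye. The Tcstv sum is highest in B1 (0.43) and lowest in A2 (-0.42), while the 2-cell-stage list is highest in B2 (0.73).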

How the data were processed

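The authors deposited FPKM values for 53023 genes in 6 libraries, with gene lengths. The submitters' processing notes name the trimmers cutadapt, Trim Galore and Trimmomatic, the aligner STAR, featureCounts for counting and the build mm10, with no version. No source used here gives the annotation, the strand setting or the use of multi-mapping reads. Per the labels' protocols, cDNA was amplified with 13 PCR cycles, ERCC spike-in RNA was added at 1 to 40000 and read pairs had 50 and 25 bases. The table has 0 spike-in rows, so levels are relative to all assigned reads. The other 9 samples of the series were not analysed here.

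FPKM times length gives reads up to 1 factor per library, set by taking the most frequent value above 0 as 1 read. Values under 1000 reads were multiples of 0.01 read (100%, tolerance 0.0002 read), and 55.9% to 58.1% were whole (tolerance 0.001 read). Counting errors do not cover PCR copies.

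The test used log2(FPKM + 1) and the 13443 genes that averaged 1 FPKM or more. One mean per pair was fitted over all 6 libraries with limma 3.58.1 (R 4.3.3, variance trend, two-sided), adjusted over genes by Benjamini-Hochberg with a threshold of 0.05. The labels do not say that pools of a pair came from separate fertilizations, so the p-values cover only pool-to-pool spread, which may be technical. Sequences and transcript lengths come from GENCODE M21 (GRCm38, the assembly of mm10), which holds both gene identifiers with their versions. Coding sequences were aligned with Biopython 1.88.

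The genes and lists were chosen with earlier results of these data known. Named besides Tcstv1 and Tcstv3 were the 8 genes closest in profile, up to 10 tested neighbours by mean level and the 4 most abundant of each list. Other genes were named after their values were seen. Alternatives were other scalings, pseudocount, filters and fits, limma-voom on recovered reads, a replicate block and leaving out each library. One gene of the marker lists is not reported here.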

Additional observations from a re-analysis of the deposited data

How the results depend on the processing

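Across 15 other settings, neither gene passed in any comparison (adjusted p of 0.863 or more). For Tcstv3 the log2 fold change ranged from -0.62 to -0.52 in C against B, from -0.20 to -0.13 in C against A and from 0.32 to 0.48 in B against A over the 9 settings that keep all libraries, and for Tcstv1 from -0.05 to -0.01, 0.06 to 0.12 and 0.07 to 0.17. With 1 library left out, so that a lone library was assumed to vary like the other pairs, Tcstv3 ranged from -0.76 to -0.37, from -0.45 to 0.16 and from 0.11 to 0.72, and Tcstv1 from -0.14 to 0.04, from -0.30 to 0.54 and from -0.26 to 0.58. Signs turned for Tcstv1 in C against B without B2 (0.041) and without C1 (0.02), in C against A without A2 (-0.30) and in B against A without A2 (-0.26), and for Tcstv3 in C against A without A1 (0.16) and without C1 (0.0035). The summed level, -0.47, -0.09 and 0.38 on the log2 scale, ranged from -0.62 to -0.32, from -0.42 to 0.23 and from 0.048 to 0.70. Over all genes 1 was called in C against B with a pseudocount of 0.1 (the immunoglobulin segment Igkv13-87, listed at 0 in both C libraries, limma, adjusted p = 0.0342), and 0 in the other settings and comparisons. Median scaling shifted single libraries by -0.14 to 0.13. The cause of these shifts was not tested.

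Same-numbered libraries deviated together weakly (r across genes of 0.098 for A and B, 0.203 for A and C and 0.005 for B and C), and no label says that a number marks a shared batch. With the replicate block the log2 fold change of Tcstv3 in C against B was again -0.56 (limma, adjusted p = 0.959), and 0 genes were called in any comparison. Depth limits Duxf3, Chaf1b and Spidr, each under 50 reads in every library, more than the Tcstv genes, whose counting error was at most 8.67% per library.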

Other observations

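Neighbours of Tcstv1 and Tcstv3 that are not copies of them, picked after their values were seen, had their own levels. Zfp131, a zinc finger gene beside the array, measured 55.6 to 81.5 FPKM, Paip1, which binds the poly(A)-binding protein, 18.9 to 37.7 FPKM, and Hmgcs1, an enzyme of cholesterol synthesis, 18.8 to 27.8 FPKM over the 6 libraries. Their log2 fold changes in C against B were 0.15 ± 0.30, -0.14 ± 0.39 and 0.28 ± 0.32 (SE), and none passed in any comparison (limma, adjusted p = 1 for each in C against B).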
